A study of Homo sapiens with 9 samples.

Results

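Fragments of Box C/D small nucleolar RNAs (snoRNAs) were described in the small RNA of K562 cells, a human leukemia line that makes globins of the erythroid lineage and has the BCR-ABL1 fusion gene. The members were all annotated human genes (GRCh37, hg19) whose symbol opens with SNORD, without the copies of SNORD113, SNORD114, SNORD115 and SNORD116, which are repeated in imprinted clusters. This gave 271 genes with 157 symbols of 64486 annotated genes. A read was assigned to a snoRNA when its alignment overlapped the gene on the same strand, and 158 members had reads.

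The study profiled untreated K562 cells in 3 batches, and libraries were selected for inserts of 20–40 nt. The values pool the 3 batches, so that none of the values below has a replicate error and no test between samples could be made. The 6 samples of HEK293 cells that carry sncRNA or control vectors, with or without doxycycline, were not analysed here. Intervals are 95% Wilson intervals, which cover counting error only, because reads without molecular identifiers are not independent molecules.

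Box C/D snoRNAs are nucleolar RNAs that are mostly cut out of introns and bound by fibrillarin, NOP56, NOP58 and SNU13. Box C near the 5′ end and box D near the 3′ end fold together, and an inner pair of these boxes, called C′ and D′, lies between them. The bases just upstream of box D or D′ pair with ribosomal RNA and guide the methylation of a ribose there, and a few members are instead needed to cut the precursor of ribosomal RNA. Shorter RNAs that begin or end at the ends of snoRNAs have been found in many cells and are called sno-derived RNAs.

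The sequences of 9 snoRNAs hold the most abundant single fragments of each kind. Each is the GRCh37 sequence of the whole annotated gene, or of the fragment alone in the long SNORD17, 5′ to 3′, with T for U. Capitals mark the most abundant fragment that starts within 5 nt of the annotated 5′ end or ends within 5 nt of the annotated 3′ end, or both, and for SNORD12B, SNORD70 and SNORD12C the most abundant fragment of all, which is in neither place.
SNORD78, chr1:173834760-173834824, minus strand, 5′ and 3′ fragments: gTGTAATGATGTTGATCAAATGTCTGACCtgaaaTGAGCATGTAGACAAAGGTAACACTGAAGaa
SNORD101, chr6:133136446-133136518, plus strand, 5′ and 3′ fragments: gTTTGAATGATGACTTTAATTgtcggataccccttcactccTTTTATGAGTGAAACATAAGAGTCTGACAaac
SNORD104, chr17:62223443-62223512, plus strand, 3′ fragment: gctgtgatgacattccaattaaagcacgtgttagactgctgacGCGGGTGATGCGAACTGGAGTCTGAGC
SNORD15A, chr11:75111435-75111582, plus strand, 5′ fragment: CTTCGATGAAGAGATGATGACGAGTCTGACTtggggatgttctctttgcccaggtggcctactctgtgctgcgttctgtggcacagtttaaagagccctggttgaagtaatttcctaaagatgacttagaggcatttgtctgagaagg
SNORD1B, chr17:74557191-74557274, plus strand, 3′ fragment: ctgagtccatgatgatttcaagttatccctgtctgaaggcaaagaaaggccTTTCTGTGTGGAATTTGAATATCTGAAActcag
SNORD17, chr20:17943355-17943383, minus strand, 3′ fragment alone: TCACAAAGATGAGTGGTGAAAATCTGATC
SNORD12B, chr20:47896856-47896946, plus strand: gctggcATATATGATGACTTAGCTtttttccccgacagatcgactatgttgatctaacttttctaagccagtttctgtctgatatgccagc
SNORD70, chr2:203141154-203141241, plus strand: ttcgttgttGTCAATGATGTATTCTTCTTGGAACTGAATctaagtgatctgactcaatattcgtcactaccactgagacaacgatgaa
SNORD12C, chr20:47895477-47895565, plus strand: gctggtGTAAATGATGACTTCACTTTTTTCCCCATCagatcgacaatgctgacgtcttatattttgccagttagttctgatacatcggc

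Box C/D snoRNAs held 339818 reads in 10508 distinct fragments. This was 7128 RPM (reads per 1000000 reads, 0.713%) of the 47670688 aligned reads listed for the pooled K562 batches, not of all small RNA sequenced. Of the 271 members, 138 (50.9%) had at least 10 reads, 108 at least 100, 56 at least 1000 and 8 at least 10000. The median over the 138 snoRNAs was 537.5 reads, with quartiles of 149.25 and 1837 reads. The reads were concentrated in few snoRNAs, as the first held 13.0% of them, the first 5 held 40.5%, the first 10 held 56.1% and the first 25 held 77.9%. A count of 0 cannot be read as absence here. Main genes of U1, U4, U5, U6, 7SK, 7SL and Y RNAs, which every cell makes, were at 0 too (11 of 13 such genes looked up after the values were seen), whereas vault RNA VTRNA1-1 had 2969 reads and RMRP 12216.

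Reads were found on the snoRNAs themselves and much less next to them. The opposite strand of the same 271 genes held 91 reads in all. Windows of the same length placed 200 nt upstream held 589 reads (266 windows, at most 131 reads in one), and those placed downstream held 2728 reads (265 windows), of which 1999 were in a single window. The annotation set the number of members as well: the 123 genes that it marks as known held 97.5% of member reads and 106 of them had at least 10 reads, whereas 26 of the 142 genes given another status and all 6 genes given no status did. The 48 copies of SNORD112 were at 0.

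SNORD78, encoded in an intron of GAS5, was the most abundant member with 44116 reads, or 925 RPM. Its 5′ end gave 33.9% of its reads and its 3′ end 63.2%, and its leading fragments were a 29-nt one at the 3′ end (18182 reads) and a 28-nt one at the 5′ end (11736 reads). Those fragments, in capitals above, leave only 5 nt between them and 1 and 2 nt at the outer ends. SNORD104 of SNHG25 (17753 reads) also gave both ends, with 60.8% at the 5′ end and 38.6% at the 3′ end.

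SNORD12B, in the ZFAS1 gene, followed with 35078 reads, of which 99.3% were centred on the 5′ side of its midpoint. Its median length was 19 nt, and fragments of 18 nt (6329 reads), 17 nt (5979 reads) and 19 nt (4747 reads) shared almost the same start. These fragments start 5 or 6 nt after the annotated start, on both sides of the limit of 5 nt, so that 43.2% of its reads were counted at the 5′ end and 56.7% at neither end. SNORD60 of SNHG19 (23348 reads), a guide of 28S rRNA, gave 96.1% of its reads at the 5′ end, again short, with a median of 20 nt.

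SNORD101, in an intron of the ribosomal protein gene RPS12, had 17402 reads, and 61.3% of them were the single 20-nt fragment shown above. SNORD15A of RPS3 had 13521 reads, 89.7% of them at the 5′ end, and its 31-nt and 30-nt fragments, which differ by the first base, held 42.8% and 37.6%. In contrast, SNORD1B of SNHG16 (11297 reads) gave 92.1% at the 3′ end, 82.8% as the single 28-nt fragment above, and 0.487% at the 5′ end. SNORD63 of HSPA9 (7132 reads, 70.02% at the 3′ end and 0.028% at the 5′ end) and SNORD17 of SNX5 (3621 reads, 98.5% at the 3′ end) were one-sided in the same way.

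The snoRNAs ranked 8 to 25 by reads had between 3154 and 11054 reads. SNORD43 of RPL3 (11054 reads, 52.7% at the 5′ and 46.4% at the 3′ end), SNORD2 of EIF4A2 (4304 reads, 44.7% and 45.3%) and SNORD48 of SNHG32 (4106 reads, 55.5% and 44.2%) came close to an even split. SNORD93 (8984 reads), SNORD55 (7524 reads), SNORD38A (5276 reads) and SNORD33 (3730 reads) gave 96.1%, 97.6%, 99.0% and 97.5% at the 5′ end. SNORD70 and SNORD69 had nearly all reads at neither end, and their most common 5′ ends lay 9 and 8 nt inside the annotated start, although 98.9% and 76.4% of their reads were on the 5′ side. SNORD12C had 39.7% of reads at the 5′ end and 79.1% on the 5′ side.

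Over all members, 191306 reads (56.3%, interval 56.1–56.5%) were at the 5′ end, 96581 (28.4%, interval 28.3–28.6%) at the 3′ end and 51931 (15.3%) at neither end. No read reached both, which for most members follows from the lengths. Listed alignments have at most 42 nt, and the median member has 73 nt. Counted per snoRNA, 65 of 138 had most of their reads at the 5′ end, 39 at the 3′ end and 34 at neither. More than 90% of reads were at the 5′ end in 23 snoRNAs and at the 3′ end in 11. Where the midpoint of the snoRNA was used in place of the 5 nt limit, 83 snoRNAs had most reads on the 5′ side and 55 on the 3′ side.

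Both sides were seen in most members, as 104 of the 138 snoRNAs had at least 10 reads on each side. In the 90 of these of at most 100 nt, the leading 5′ and the leading 3′ fragment left a median of 21.5 nt between them (quartiles 14 and 33.75 nt), and in 6 snoRNAs they overlapped. Thus the middle of a snoRNA was read less: averaged over 131 snoRNAs, 49.0% of the reads of a snoRNA covered the point at 21% of its length, 14.8% the point at 41% and 37.0% the point at 81%.

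Pooled over all members, fragment lengths had 2 peaks. Over all member reads, the median length was 25 nt (quartiles 20 and 28 nt). Near the middle, 23 nt held only 3.27% of reads, whereas 20 nt held 8.63% and 28 nt held 12.6%. A few fragments made much of these peaks. One of SNORD101 gave 10665 of the 29330 reads of 20 nt. Of the 42857 reads of 28 nt, SNORD78 gave 11736 and 4333 and SNORD1B gave 9355 as single fragments. Whether 2 peaks remain with each snoRNA counted once was not tested. Fragments of the 5′ end were of 22 nt in the median (quartiles 19 and 28 nt), and 51.0% of reads had 16–22 nt and 32.2% had 26–31 nt. Fragments of the 3′ end were of 28 nt in the median (quartiles 25 and 29 nt), and 16.2% of reads had 16–22 nt and 69.0% had 26–31 nt. This difference was not seen with each snoRNA counted once, where the median lengths were 22.5 nt at the 5′ end (108 snoRNAs) and 23 nt at the 3′ end (94 snoRNAs).

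Single snoRNAs had both sizes. In SNORD104 the 5′ side reads had a median of 18 nt and the 3′ side reads one of 27 nt, in SNORD101 20 and 29 nt, and in SNORD37 of EEF2 (8190 reads) 18 and 27 nt. The opposite order was seen in SNORD21 of RPL5 (6639 reads, 28 and 23 nt), SNORD119 of SNRPB (4116 reads, 30 and 23 nt) and SNORD45A of RABGGTB (3154 reads, 32 and 17 nt).

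The other classes of small RNA in the same cells were set beside these values. H/ACA snoRNAs, which guide pseudouridylation, had 11081 reads on 399 genes, a median of 23 nt and 66.2% of reads at the 5′ end, and 23.1% of the genes had at least 10 reads. scaRNAs, the guides of the Cajal body, had 10262 reads on 50 genes, and 62.5% of these came from 1 gene. miRNA hairpins had 17387623 reads on 3049 genes and a median of 23 nt with quartiles of 22 and 23 nt. With these pooled libraries the differences between classes were not tested.

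The ends of the fragments varied within a snoRNA. In the median snoRNA the most common 5′ end held 47.5% of reads, the most common 3′ end 43.1% and the leading fragment 23.8%, against 80.9%, 53.8% and 48.8% in the median miRNA hairpin. Among reads on the 5′ side of the midpoint, the most common 5′ end held 67.8% and the most common 3′ end 38.8% in the median snoRNA of 126. Among reads on the 3′ side these values were 28.6% and 60.7%.

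The boxes were then located by their letters on the strand of the gene. TGATG, the core of box C, was searched from 10 nt outside to 25 nt inside the annotated 5′ end, and CTGA, box D, over the same distances around the 3′ end. The first TGATG and the last CTGA found there were used. TGATG was found in 180 of 271 members (66.4%) and in 120 of the 138 with at least 10 reads (87.0%), against 3.76% of H/ACA snoRNAs and 3.32% of 271 upstream windows. CTGA was found in 76.4% of members and 91.3% of those with at least 10 reads, against 14.3% of H/ACA snoRNAs and 14.4% of upstream windows. A match of letters does not show that a box is used, and a member without a match may hold a variant, as SNORD93 does not hold TGATG near its start.

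The 5′ ends of fragments lay at a nearly fixed distance from box C. Of the 217931 reads on the 5′ side of snoRNAs with TGATG, 38.5% began 5 nt and 50.2% began 6 nt before it, 88.7% together (interval 88.6–88.8%). Per snoRNA, the most common 5′ end was 5 or 6 nt before TGATG in 101 of 111 snoRNAs (91.0%), whereas the annotated start was there in 48 (43.2%). Thus SNORD12B, SNORD69 and SNORD70, whose fragments start inside the annotated gene, had their most common 5′ end 5 nt before TGATG as well.

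The 10 exceptions were led by SNORD15A, where the fragment starts 14 nt before the TGATG that was found, SNORD48 with 2 nt and SNORD33 with 7 nt. SNORD48 also holds a later TGATG, overlapping the first, at the common distance of 5 or 6 nt. It is therefore an exception only because the first match was used. The others were SNORD32A, SNORD36C and SNORD9 with 7 nt, SNORD79 with 24 nt, SNORD11B and SNORD74, whose fragments start 3 nt after the first base of TGATG, and SNORD91A, whose fragments start 40 nt after it. SNORD91A is annotated as 191 nt and had no CTGA near its annotated 3′ end. The TGATG near its annotated start may therefore not be box C. Those with few reads, from 16 in SNORD9 to 34 in SNORD79, rest on a small count. In SNORD79 the leading fragment (30 of 34 reads) overlaps only the first base of the annotated gene and otherwise lies upstream of it. The exceptions were named after their values were seen.

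The 3′ ends lay at more than 1 distance after box D. Of 111103 reads on the 3′ side of snoRNAs with CTGA, 67.5% (interval 67.2–67.7%) ended 2 nt after its last base, as in SNORD78, SNORD1B, SNORD104 and SNORD17 above, and 10.1% ended 5 nt after it. With each snoRNA counted once, the most common 3′ end was 2 nt after CTGA in 46 of 111 snoRNAs, 5 nt after it in 35 and 4 nt after it in 13. The remaining snoRNAs were spread over distances from -21 to 12 nt, where a negative value lies before the end of CTGA. In some, the CTGA that was found lies outside the annotated gene and may not be box D. It ended 7 nt beyond the annotated 3′ end in SNORD18C, SNORD110 and SNORD7. Reads that ended 2 nt after CTGA had a median of 28 nt, and 77.8% of them were of 26–31 nt, whereas reads that ended 4 or 5 nt after it had a median of 23 nt and 22.9% were of 26–31 nt. With each snoRNA counted once the medians were 27 nt (71 snoRNAs) and 22 nt (77 snoRNAs), and 51 snoRNAs had at least 10 reads of both kinds.

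The inner end of 5′ fragments was examined for the same letters, a question raised by the sequences and therefore chosen after the values were seen. An inner CTGA, the letters of box D′, was any CTGA that ended at least 15 nt after the annotated start and was not the box D found near the 3′ end. Of the 75069 reads of 26–31 nt on the 5′ side, 71.1% (interval 70.7–71.4%) ended exactly 2 nt after an inner CTGA, and 65.6% of 61678 without SNORD78. Of all last bases that are possible at these lengths, counted from the most common 5′ end of each snoRNA, 2.91% lie there. Each snoRNA counts equally in this percent, whereas abundant snoRNAs weigh more in the 71.1%. The 2 values are therefore unlike measures, and their ratio does not give the size of an excess. Of the 118685 reads of 16–22 nt, 3.20% ended 2 nt after an inner CTGA, where 0.340% of possible last bases lie, with the same difference in weighting. Of these 3794 short reads, 2382 were the leading 5′ side fragment of SNORD37.

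Only 19 of the 85 snoRNAs with at least 10 of these long reads hold an inner CTGA at a distance that gives 26–31 nt when counted from the most common 5′ end of the snoRNA. With any start, 23 of the 85 had most of their long reads end 2 nt after an inner CTGA. In those 19 snoRNAs a median of 92.2% of the long reads ended 2 nt after it (quartiles 86.6% and 95.9%), and all 19 had more than 50% there, the lowest being SNORD60 with 64.3%. SNORD78 (96.1% of 13391 long reads), SNORD15A (96.3% of 11305), SNORD93 (93.7% of 7816) and SNORD21 (95.6% of 3744) had the most long reads. Taking the leading fragment of the 5′ side, 19 of 33 of those with 26–31 nt ended 2 nt after an inner CTGA, against 1 of 56 of those with 16–22 nt, which is that of SNORD37. Fewer short fragments could end there. Of possible last bases, 2.91% at 26–31 nt and 0.340% at 16–22 nt lie 2 nt after an inner CTGA.

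The sequences of 4 snoRNAs show both kinds of 5′ fragment in capitals. In SNORD93, SNORD21 and SNORD119 the fragment ends in CTGA and 2 further bases, and in SNORD60 it stops before the first inner CTGA.
SNORD93, chr7:22896232-22896305, plus strand, 27 nt: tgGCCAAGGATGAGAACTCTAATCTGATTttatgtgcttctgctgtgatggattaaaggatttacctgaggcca
SNORD21, chr1:93302846-93302940, plus strand, 28 nt: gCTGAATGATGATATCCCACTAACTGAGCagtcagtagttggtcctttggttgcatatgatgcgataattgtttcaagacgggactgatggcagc
SNORD119, chr20:2443608-2443683, minus strand, 30 nt: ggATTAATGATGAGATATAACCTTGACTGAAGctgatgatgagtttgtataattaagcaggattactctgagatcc
SNORD60, chr16:2205024-2205106, minus strand, 18 nt: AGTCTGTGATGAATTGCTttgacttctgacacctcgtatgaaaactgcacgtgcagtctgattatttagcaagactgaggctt

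The short 5′ fragments began as uniformly as the long ones and ended less uniformly. In the median snoRNA the most common 5′ end held 73.1% of the reads of 16–22 nt (100 snoRNAs) and 74.6% of those of 26–31 nt (85 snoRNAs), and the most common 3′ end held 44.3% and 56.3%. SNORD101 was an exception, with 61.3% of all its reads in 1 fragment of 20 nt.

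**Figure D1:**
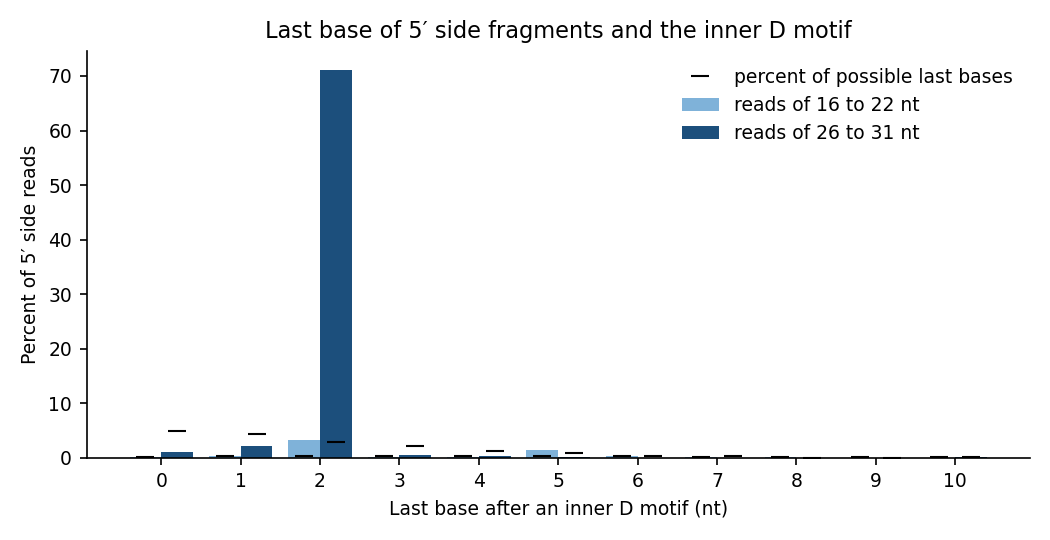
Percent of 5′ side reads (y axis) by the distance in nt from the last base of an inner CTGA (the inner D motif) to the last base of the fragment (x axis, 0 to 10 nt), for reads of 16–22 nt (light) and 26–31 nt (dark). Black dashes give the percent of possible last bases at that distance, with each snoRNA counted equally, whereas the bars are weighted by reads. At 2 nt the long reads have 71.1% and the dash is at 2.91%.

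The sides were also compared, after the values were seen, among related snoRNAs, which share a number and differ in the following letter, and among snoRNAs of the same host gene. Of 15 such families with at least 2 members of at least 100 reads (36 snoRNAs), 13 had most reads of every member on the same side. Of 22 host genes counted in the same manner (60 snoRNAs), 11 did and 11 were mixed. The difference between the families and the hosts was not tested, and most families share a host. Copies can also share reads by sequence, as 18.5% of the reads of SNORD45B, 51.1% of those of SNORD19B and none of those of the SNORD45 copy had 1 exact match in GRCh37.

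All of SNORD18A, SNORD18B and SNORD18C, in introns of RPL4, were read mostly from the 3′ side, with 13.7%, 8.11% and 8.64% of reads on the 5′ side. SNORD88A, SNORD88B and SNORD88C gave 94.4%, 99.5% and 99.4% on the 5′ side, and SNORD58A, SNORD58B and SNORD58C of RPL17 gave 83.9%, 61.7% and 89.8%. SNORD16, in the same RPL4 gene as SNORD18A, had 75.6% on the 5′ side. The 2 mixed families were SNORD4A and SNORD4B of RPL23A, with 39.0% and 57.2% on the 5′ side, and SNORD111 and SNORD111B of SF3B3, with 88.0% and 6.85%.

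Levels differed within hosts too. In 28 host genes with at least 2 snoRNAs of at least 10 reads (76 snoRNAs), the most abundant had a median of 7.85 times the reads of the least abundant, from 1.22 times in PPAN to 188.7 times in PRPF39. The value of PRPF39 sets SNORD127 (1887 reads) against a copy of SNORD58 at the limit of 10 reads. In ZFAS1, SNORD12B had 35078 reads, SNORD12C 5456 and SNORD12 437, and the medians were 19, 30 and 28 nt. Of the 138 snoRNAs with at least 10 reads, 103 lie in an intron of a host gene, 13 in or partly in an exon and 22 in no host gene.

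Lists of snoRNAs by their known role were counted last. The annotation used here holds only distant copies of several symbols, so that the known genes of SNORD44, SNORD27, SNORD22 and others, and most snoRNAs of GAS5 and SNHG1, were not analysed here. Of the 22 genes listed as guides of 18S rRNA, 12 had at least 10 reads, with 24975 reads in all, and 11 of the 12 had most reads at the 5′ end. The highest of the 12 were SNORD43 (11054 reads), SNORD33 (3730), SNORD45A (3154) and SNORD20 (2086). The 12 also include copies of SNORD27 (33 reads), SNORD28 (26), SNORD43 (26) and SNORD44 (22, the lowest), which are not the known genes. All of these copies had most reads at the 5′ end. Of the 44 genes listed as guides of 28S rRNA, 27 had at least 10 reads, with 127744 reads, 37.6% of all member reads, and 13 had most reads at the 5′ end and 9 at the 3′ end. Among all members, 138 of 271 had at least 10 reads, and 65 and 39 of the 138 had most reads at the 5′ and at the 3′ end. The 27 genes also include copies, among them SNORD79, whose leading fragment overlaps only the first base of its gene.

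Among snoRNAs used as references in the quantitative PCR of miRNAs, 9 of 10 genes had at least 10 reads, with 23613 reads, and SNORD43, SNORD38B (4107 reads) and SNORD48 were the highest. The annotation held 8 of the 10 listed symbols, and the 9 genes include the copies of SNORD43 (26 reads) and SNORD44 (22 reads). SnoRNAs in ribosomal protein genes gave 104973 reads, 30.9% of member reads, on 37 of 40 genes with at least 10 reads, of which 25 had most reads at the 5′ end and 8 at the 3′ end. Of all members, 50.9% had at least 10 reads, and of the genes marked as known 86.2% did. Whether these lists differ from other known genes was not tested. GAS5 gave 1 annotated member, SNORD78, and SNHG1 gave 0.

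SnoRNAs that act in cutting or folding the precursor of ribosomal RNA could not be assessed. Of 12 genes, 4 had any reads, 1138 in all, and these were the genes annotated for U3: SNORD3B-1 (297 reads), SNORD3A (289), SNORD3C (279) and SNORD3B-2 (273). Those genes are annotated as 581–791 nt, longer than U3 itself, and no fragment started before base 218, so that none of these reads can be taken as a 5′ fragment of U3. These genes are nearly identical in sequence, so that their separate counts cannot be read either. The 4 genes are nonetheless counted among the 138 members with at least 10 reads and the 34 with most reads at neither end. SNORD118 (U8), SNORD13 (U13), SNORD14A to SNORD14E (U14) and the copy of SNORD22 on chromosome 13 had 0 reads. The methods of the study name a step that removes clusters over repeats of the RNA family for the unannotated RNAs, and its part in these zeros was not tested.

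A part of the counts on copies is shared by sequence. Of member reads, 94.8% had 1 exact match in GRCh37, and the share was 63.9% at 12–17 nt, 96.4% at 18–22 nt and 99.3% at 23–42 nt. It was 97.9% for SNORD12B, 85.2% for SNORD12C, 78.2% for SNORD58C and 18.5% for SNORD45B, so that the count of SNORD45B (325 reads) is uncertain. The origin of the cells was also checked by markers of K562 and erythroid cells: exons of HBG1, HBG2 and HBE1, the fetal and embryonic globin genes, held 281, 307 and 273 reads of at least 18 nt, and those of TFRC, GATA1 and HBZ held 358, 21 and 17.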

How the data were processed

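Small RNA of 3 batches of K562 cells was sequenced, and the authors aligned the reads to GRCh37 with Bowtie2 2.2.9, kept reads that mapped uniquely and pooled the batches. The deposited values list 3688019 alignments of 10–42 nt with a count of reads and an RPKM, both computed by the authors. The deposited reads count is a smaller whole number multiplied by how many listed alignments, itself included, lie on that strand with both ends together shifted by no more than 3 nt, as the division was whole for all 1246133 alignments with a neighbour (70.4% at a shift of 2 nt and 71.4% at 4 nt). The divided numbers, 47670688 reads from 718601614 deposited, are the reads used here, and the deposited RPKM was not used for values in the text. Genes of several RNAs that every cell makes are at 0, and no source used here states whether such RNAs were filtered before deposit, so that zeros are given only as listed.

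Genes were those of GENCODE release 44 on GRCh37. A read at an end lies within 5 nt of that annotated end. The 5′ or 3′ side was set by the centre of the fragment. Named are the 25 members with the most reads, members of the lists from among the 4 highest and the lowest, the 5 most abundant fragments of each end class, and families or exceptions chosen after their values were seen. The rule for the 3 members with the most even split returned SNORD69, SNORD70 and SNORD105, whose reads were at neither end. Members and lists were chosen with earlier results of these data known. Python 3.11.15, numpy 2.4.6, pandas 2.3.3, numba 0.67.0, pyfaidx 0.9.0.4 and matplotlib 3.10.9 were used, and the steps were tested on simulated data. Some items are not reported here.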

Additional observations from a re-analysis of the deposited data

How the results depend on the processing

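Of 57 values recomputed under 10 alternatives, 35 stayed within the counting interval or, for counts of snoRNAs, within 1.5 times, and 22 moved. No paired analysis was possible because the batches are pooled, and for the same reason no batch could be left out. All counts of snoRNAs stayed within 1.5 times, at up to 144 with at least 10 reads (108 with at least 100), 51–83 with most reads at the 5′ end and 30–55 at the 3′ end, and the share at the 5′ end exceeded that at the 3′ end under all alternatives. With reads as deposited, there were 7263 RPM, a median of 26 nt and shares of 55.9% at the 5′ and 29.9% at the 3′ end. With fragments of at least 18 nt these were 8469, 27 nt, 55.2% and 30.2%. Without SNORD78 they were 6203, 23 nt, 59.6% and 23.2%. With fragments of 1 exact match they were 6755, 26 nt, 56.02% and 28.7%. A window of 3 nt gave 48.9% and 22.96%, a window of 10 nt gave 66.2% and 30.8%, and the centre of the fragment, added after seeing the data, gave 67.2% and 32.8%. The restriction to fragments with at least 50% inside the snoRNA and the inclusion of SNORD113 to SNORD116 moved none of the values. Reads of 12–17 nt, of which 63.9% have 1 exact match, limit the counts of related snoRNAs.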
